A study of Homo sapiens with 12 samples.

Results

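The ERBB receptors and their ligands were described in Hs578T and BT-20 human breast cancer cells. The group held 10 genes: the receptors EGFR, ERBB2, ERBB3 and ERBB4 and the ligands AREG, EREG, TGFA, HBEGF, BTC and NRG1. Each gene was represented by the probe set that carried only its symbol and had the highest mean over the 12 arrays. Such a probe set was listed for 9 of the 10 genes, among 19775 genes in all. AREG had none in the probe annotation used here and is given no value.

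Total RNA of 12 cultures was hybridised to Affymetrix expression arrays, 6 for each line. All cells were grown in MEM medium with 10% fetal calf serum and transfected for 24 h with 200 nM of an oligonucleotide in the liposomal reagent DOTAP, so that no array shows untreated or untransfected cells. For each line, 2 arrays followed a double-stranded DNA oligonucleotide with methylated CpG cytosines (M), 2 followed the same sequence without methylation (U), 1 followed the CpG oligonucleotide ODN2006 and 1 followed its GpC control. The M and U arrays come in set 1 and set 2, which the labels call biological replicates. The ODN arrays carry no set number.

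Hs578T was derived from a carcinosarcoma of the breast, and BT-20 from a breast carcinoma and is known for amplified EGFR. Each model is 1 cell line, so a difference between them is a difference between these lines. All 8 epithelial markers, among them KRT18, KRT8 and CDH1, lay higher in every BT-20 array, and all 8 mesenchymal markers, among them FN1, VIM and COL1A1, lay higher in every Hs578T array. The leukocyte markers with a value (3 of 4) were under 5 on the log2 scale in all arrays. Of the 3 endothelial markers, CDH5 ranged from 7.29 to 9.48 in BT-20 and PECAM1 from 4.08 to 6.69 in Hs578T, while VWF stayed between 2.31 and 2.37. The mean level of the epithelial list was 4.48 to 4.63 over the Hs578T arrays and 12.2 to 12.5 over the BT-20 arrays, and that of the mesenchymal list was 13.7 to 14.0 and 4.48 to 4.80. These markers moved with the line, and their part in the differences below was not tested.

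The ERBB receptors are tyrosine kinases of the cell surface that work in pairs. EGFR binds AREG, EREG, TGFA, HBEGF and BTC, whereas ERBB3 and ERBB4 bind the neuregulins, and HBEGF, BTC and EREG also bind ERBB4. ERBB2 has no known ligand of its own, and ERBB3 has little kinase activity, so that both act mainly with a partner. The ligands are made as membrane-bound precursors and are released by proteases of the ADAM family. Active receptors recruit adaptors such as GRB2 and SHC1, which lead to RAS and ERK signalling and to PI3 kinase.

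The upstream sequences of 4 members are shown because these genes gave both directions of the line difference: EGFR, EREG and TGFA were higher in BT-20 and HBEGF was higher in Hs578T. Each line holds the 250 bases before the annotated start, written 5′ to 3′ on the strand of the gene, from RefSeq in build GRCh38.p14. Capitals mark the letters GGGCGG or CCGCCC (the GC box), TATAAA or TTTATA (which is known as the TATA box), TGANTCA (the AP-1 motif) and CAGGTG or CACCTG (the E-box), so that both strands were searched.
EGFR, chr7:55018767-55019016, plus strand: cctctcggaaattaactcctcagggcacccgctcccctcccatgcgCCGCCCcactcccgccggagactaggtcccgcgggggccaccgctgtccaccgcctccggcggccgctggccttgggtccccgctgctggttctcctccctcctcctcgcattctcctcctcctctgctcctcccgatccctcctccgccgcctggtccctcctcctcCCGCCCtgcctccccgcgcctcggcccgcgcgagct
EREG, chr4:74364895-74365144, plus strand: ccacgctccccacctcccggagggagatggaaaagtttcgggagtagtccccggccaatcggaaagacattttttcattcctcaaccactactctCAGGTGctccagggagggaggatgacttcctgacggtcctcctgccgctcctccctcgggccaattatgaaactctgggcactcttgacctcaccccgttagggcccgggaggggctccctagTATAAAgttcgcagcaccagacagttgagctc
TGFA, chr2:70553827-70554076, minus strand: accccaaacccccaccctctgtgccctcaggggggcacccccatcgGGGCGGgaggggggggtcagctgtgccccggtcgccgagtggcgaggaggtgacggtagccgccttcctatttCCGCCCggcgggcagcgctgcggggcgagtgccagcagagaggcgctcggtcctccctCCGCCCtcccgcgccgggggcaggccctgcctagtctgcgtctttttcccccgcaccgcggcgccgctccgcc
HBEGF, chr5:140346604-140346853, minus strand: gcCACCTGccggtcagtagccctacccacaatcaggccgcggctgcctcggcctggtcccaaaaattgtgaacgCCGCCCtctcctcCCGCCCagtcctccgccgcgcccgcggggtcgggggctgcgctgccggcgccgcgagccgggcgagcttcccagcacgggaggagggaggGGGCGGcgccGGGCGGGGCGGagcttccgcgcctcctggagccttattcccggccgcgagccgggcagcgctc
The EREG window held 58.0% G and C, against 73.6% for EGFR, 75.6% for TGFA and 76.4% for HBEGF, and over the 8 members with a window the share ran from 57.2% (ERBB4) to 76.4%. EREG held a TATA box and no GC box, while EGFR held 2 GC boxes, TGFA 3 and HBEGF 5, of which a pair overlap. AREG also held a TATA box, and ERBB2 and BTC also held no GC box. The GC box occurs in 42.6% of the 35116 RefSeq windows of this length, the TATA box in 10.7%, the AP-1 motif in 6.57% and the E-box in 17.5%. A window was listed for 8 of the 10 members, and ERBB3 and NRG1 were not among them. A match is a description of letters and not a site of binding.

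The treatment oligonucleotides ODN2006 and its control are shown because they differ only in the order of C and G. Capitals mark the 4 CpG dinucleotides of the first and the 4 GpC dinucleotides of the other, and 8 of the 24 positions differ.
ODN2006: tCGtCGttttgtCGttttgtCGtt
ODN2006 control: tGCtGCttttgtGCttttgtGCtt

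The first comparison asked how the receptors and ligands differed between the lines. EGFR, ERBB2, ERBB3, EREG and TGFA were all higher in BT-20, and HBEGF was higher in Hs578T. Differences are given as Hs578T minus BT-20 over the 8 M and U arrays, so a negative value means a higher level in BT-20. Of the members, 7 passed the filter of 5 or above in at least 2 of these arrays and 6 had an adjusted P under 0.05 in limma. The background was high: 74.6% of the 10410 genes tested were called, 34.4% higher in Hs578T and 40.2% higher in BT-20, so that the size of a difference tells more than its call. The median absolute difference over all genes tested was 0.81. Where a line was under 5 in all its M and U arrays, no level can be given there, and the fold is a lower bound: the mean of the other line over 5. Such a feature passed the filter only through the other line. Among the called members this holds for ERBB3, EREG and TGFA, whose direction was thereby largely fixed in advance. In RNA from a whole culture, fewer cells that express a gene and less RNA per cell cannot be told apart. Each ODN group holds 1 array a line. Where ODN2006 and its control were kept as separate groups, the spread therefore came from the M and U arrays. The ODN arrays repeated the comparison on cultures that the first test did not use, with 67.3% of genes called and again 6 of the 7 members.

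**Figure D1:**
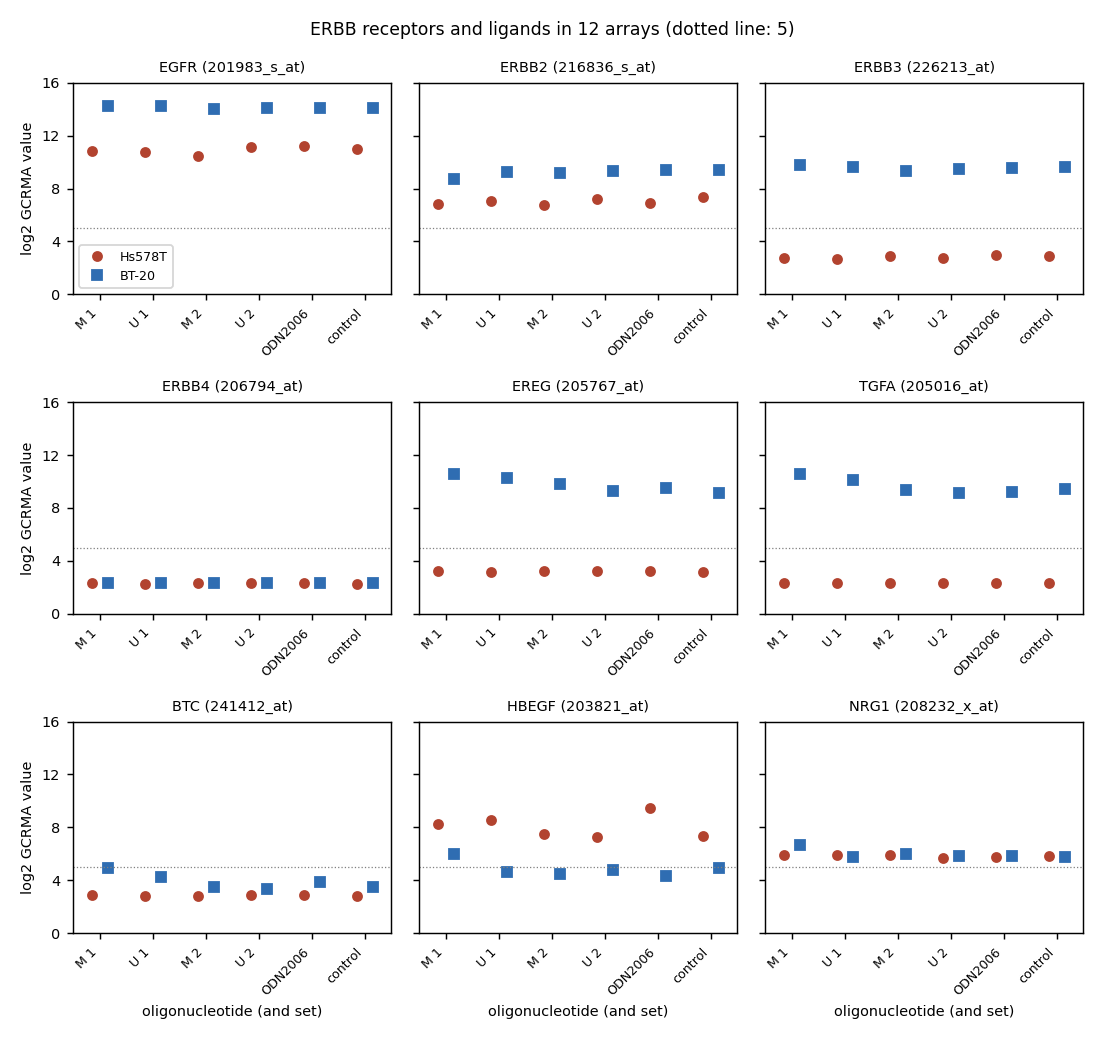
log2 GCRMA value (y axis) of the probe set that represents each member in each of the 12 arrays (x axis: oligonucleotide, with the set for M and U); circles are Hs578T and squares BT-20, and the dotted line marks the filter value of 5. EGFR, ERBB2, ERBB3, EREG and TGFA lie higher in all BT-20 arrays, HBEGF lies higher in all Hs578T arrays, ERBB4 stays between 2.28 and 2.33, and NRG1 overlaps.

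EGFR (chr7:55019017-55211628) encodes the founding receptor of the family. Its probe set 201983_s_at read 10.80, 10.78, 10.49 and 11.11 in the Hs578T arrays M 1, U 1, M 2 and U 2, 11.20 after ODN2006 and 10.98 after the control. In BT-20 it read 14.24, 14.25, 14.01, 14.10, 14.12 and 14.12 in the same order. The lines were far apart and each was narrow: the BT-20 arrays spanned less than the Hs578T arrays. The difference was −3.35 (SE 0.131), or 10.2-fold higher mRNA expression in BT-20 (adjusted P 1.13e-06 by limma). In the ODN arrays it was −3.03 (SE 0.186; adjusted P 1.70e-05 by limma).

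EGFR has 9 probe sets on the array, and each of the 6 that passed the filter was higher in BT-20, by differences from −4.16 to −3.07 in the 5 measured in both lines. The sixth, 211551_at, was under 5 in Hs578T and at least 1.67-fold higher in BT-20. The remaining 3 probe sets did not pass the filter. Tested probe set by probe set, 71.9% of the 21150 probe sets were called for the line difference. Among the member probe sets, 22 were tested and 21 were called, 15 higher in BT-20 and 6 higher in Hs578T. Many of these were under 5 in a line in all M and U arrays and passed the filter only through the other line. They were 211551_at of EGFR, 210930_s_at of ERBB2, 38037_at of HBEGF and all those of ERBB3, EREG and TGFA. The tested NRG1 probe sets other than 208232_x_at were of this kind too. Their direction was thereby largely fixed in advance, and the count is no support for it.

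ERBB2 (chr17:39688094-39728658) encodes the partner receptor without a ligand. In Hs578T its probe set 216836_s_at read 6.86 and 7.04 in M 1 and U 1, 6.74 and 7.23 in M 2 and U 2, 6.89 after ODN2006 and 7.37 after the control. The BT-20 values were 8.73, 9.26, 9.17, 9.34, 9.37 and 9.43. The lines did not overlap, and the gap was smaller than that of EGFR. The difference was −2.16 (SE 0.125), 4.46-fold higher in BT-20 (adjusted P 7.66e-06 by limma). Its other tested probe set, 210930_s_at, lay between 2.44 and 3.72 in Hs578T and was at least 1.18-fold higher in BT-20.

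ERBB3 (chr12:56080108-56103505) encodes the neuregulin receptor that signals through a partner to PI3 kinase. Its probe set 226213_at stayed between 2.69 and 2.98 in the 6 Hs578T arrays, well under the filter value. In BT-20 it read 9.79, 9.61, 9.33 and 9.47 in the M and U arrays, 9.56 after ODN2006 and 9.60 after the control. ERBB3 was at least 23.4-fold higher in BT-20, a bound of −4.55 on the log2 scale, and passed the filter only through BT-20 (adjusted P 3.44e-08 by limma on the values as deposited). The probe sets 202454_s_at and 1563253_s_at were also under 5 in Hs578T and higher in BT-20, at least 11.0-fold and 1.56-fold. In the ODN arrays 1563253_s_at was not called (adjusted P 0.0894 by limma).

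ERBB4 (chr2:211375717-212538802), the other neuregulin receptor, was between 2.28 and 2.33 in all arrays of both lines with its highest probe set, and its other 3 probe sets were lower still. It did not pass the filter and was not tested. Thus no array of either line gave an ERBB4 value near those that passed the filter.

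Among the ligands, EREG and TGFA were under 5 in Hs578T and above 9 in BT-20. EREG (chr4:74365145-74388749) encodes epiregulin, which binds EGFR and ERBB4. Its probe set 205767_at ranged from 3.18 to 3.23 in Hs578T. In BT-20 it read 10.54 and 10.25 in M 1 and U 1, 9.80 and 9.28 in M 2 and U 2, 9.50 after ODN2006 and 9.12 after the control. EREG was at least 31.3-fold higher in BT-20, a bound of −4.97 on the log2 scale (adjusted P 8.61e-07 by limma on the values as deposited). The second EREG probe set, 1569583_at, stayed under 2 in every array and was not tested.

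TGFA (chr2:70447284-70553826) encodes transforming growth factor alpha, a ligand of EGFR. Its probe set 205016_at ranged from 2.32 to 2.36 in Hs578T. The BT-20 values were 10.53 and 10.12 in M 1 and U 1, 9.32 and 9.09 in M 2 and U 2, 9.19 after ODN2006 and 9.42 after the control. TGFA was at least 27.2-fold higher in BT-20, a bound of −4.77 on the log2 scale (adjusted P 1.81e-06 by limma on the values as deposited). The probe sets 205015_s_at and 211258_s_at were also under 5 in Hs578T, and at least 2.54-fold and 1.81-fold higher in BT-20.

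BTC (chr4:74744759-74794523) encodes betacellulin and lies in the same cluster of chromosome 4 as EREG and AREG. It was under 5 in all arrays and was not tested. In Hs578T its probe set 241412_at ranged from 2.78 to 2.90. In BT-20 it read 4.90 and 4.21 in M 1 and U 1, 3.51 and 3.33 in M 2 and U 2, 3.86 after ODN2006 and 3.49 after the control. Every BT-20 value lay above every Hs578T value, at levels where little can be read from a difference.

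HBEGF (chr5:140332843-140346603) encodes heparin-binding EGF-like growth factor, a ligand of EGFR and ERBB4, and ran the other way. In Hs578T its probe set 203821_at read 8.25 and 8.59 in M 1 and U 1, 7.47 and 7.25 in M 2 and U 2, 9.43 after ODN2006 and 7.36 after the control. In BT-20 it read 6.0, 4.59, 4.47, 4.81, 4.29 and 4.93, of which only the value of M 1 was above 5. The lines did not overlap, and HBEGF spread more over the Hs578T arrays than any other of the probe sets that represent a member. The difference was +2.92 (SE 0.432), 7.59-fold higher in Hs578T (adjusted P 7.61e-04 by limma), and +2.64 with values under 5 raised to 5. In the ODN arrays it was +3.79 (SE 0.612; adjusted P 0.0015 by limma). The second tested probe set, 38037_at, was under 5 in the 4 M and U arrays of BT-20 and at least 2.54-fold higher in Hs578T.

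NRG1 lies on chromosome 8 and encodes neuregulin 1, the ligand of ERBB3 and ERBB4. Its answer depended on the probe set. The probe set with the highest mean, 208232_x_at, read 5.92, 5.93, 5.94 and 5.69 in the M 1, U 1, M 2 and U 2 arrays of Hs578T and 6.65, 5.75, 5.98 and 5.85 in those of BT-20. It overlapped between the lines and differed by −0.19 (SE 0.161; 95% confidence interval −0.57 to 0.20; adjusted P 0.318 by limma). With housekeeping centring it was +0.0134, and without BT-20 M replicate 2 it was −0.36 (adjusted P 0.0315 by limma). A suffix of _x_at marks a probe set whose probes can match other transcripts.

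The other 5 NRG1 probe sets were all higher in Hs578T, with no overlap between the lines. The probe set 206237_s_at read 7.16, 7.77, 7.32 and 7.95 in the M 1, U 1, M 2 and U 2 arrays of Hs578T, 8.71 after ODN2006 and 7.74 after the control, and between 2.25 and 2.45 in BT-20. The probe set 206343_s_at read 6.90, 7.36, 7.88, 8.39, 8.41 and 8.09 in Hs578T and between 2.28 and 2.31 in BT-20. Both therefore sat above the filter value in one line and under it in the other.

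In Hs578T 206237_s_at was at least 5.85-fold higher (adjusted P 4.91e-08 by limma on the values as deposited), and 206343_s_at at least 6.20-fold higher (adjusted P 7.18e-06 by limma). The probe set 208230_s_at was at least 1.70-fold higher, and 208241_at, at a mean of 4.80 in Hs578T, allows no fold. The probe set 208231_at passed the filter only when the ODN arrays were included, and was called there as higher in Hs578T (adjusted P 3.30e-04 by limma). It passed through the ODN arrays of Hs578T alone, so its direction was largely fixed in advance. The mean of the 6 probe sets gave +2.85 over the M and U arrays (adjusted P 1.13e-06 by limma), a value that takes in 5 probe sets under 5 in BT-20.

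**Figure D2:**
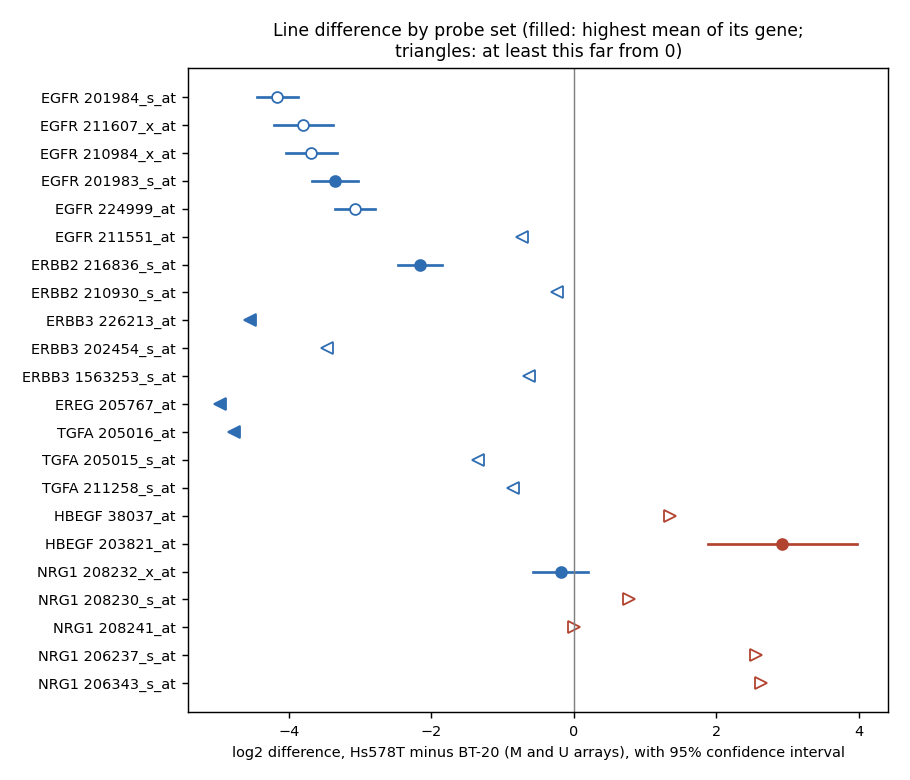
log2 difference, Hs578T minus BT-20 (x axis), of each member probe set that passed the filter over the M and U arrays (y axis), with 95% confidence intervals from limma; filled symbols are the probe sets with the highest mean of their gene, and triangles, without an interval, are lower bounds against 5 where a line was under 5 in all these arrays. The probe sets of each gene lie on one side of 0 except those of NRG1, where 208232_x_at lies at −0.19 and the other 4 are bounds, from 0 for 208241_at to +2.63.

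The neighbours of EGFR on chromosome 7 were then examined, since an amplified segment often holds more than 1 gene. They were the 8 genes with a value on either side of EGFR in RefSeq order. Of these 16 genes, 9 were tested and all 9 were called, 8 of them higher in BT-20, where the background is 40.2%. Their median difference was −1.33, against −0.09 over all genes tested. DNA copy number was not measured here.

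On the side toward higher coordinates, LANCL2, the nearest neighbour with a value, differed by −3.43 (SE 0.175), about as much as EGFR. LANCL2 ranged from 8.16 to 8.80 in Hs578T and from 11.78 to 12.05 in BT-20. Beyond it, VOPP1 differed by −1.65, MRPS17, a protein of the mitochondrial ribosome, by −2.72, NIPSNAP2 by −1.50, PSPH, the phosphatase of serine synthesis, by −0.86, CCT6A, a subunit of the chaperonin, by −1.33 and SUMF2 by −0.99. All 7 tested genes on this side were thus higher in BT-20.

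On the other side only FIGNL1 and GRB10 were tested. FIGNL1 differed by −1.23, and GRB10, an adaptor that binds growth factor receptors, by +3.84 (SE 0.214). GRB10 ranged from 10.48 to 10.93 in Hs578T and from 6.34 to 7.57 in BT-20.

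The other genes of the pathway were counted from lists. Of 53 tested genes in 4 lists, 38 differed between the lines, 16 higher in Hs578T and 22 higher in BT-20, a share close to the background of 74.6%. Over all genes tested, 34.4% were called higher in Hs578T and 40.2% higher in BT-20. The ligands EGF, NRG2, NRG3 and NRG4 were between 2.29 and 2.97 in all arrays and did not pass the filter, and EPGN had no value.

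Of the 7 genes of ligand shedding, 3 were called. TIMP3, an inhibitor of ADAM proteases, ranged from 12.92 to 13.14 in Hs578T and from 2.75 to 3.32 in BT-20, and was at least 261-fold higher in Hs578T. ADAM12, a protease that can release HBEGF, was at least 45.7-fold higher in Hs578T and under 5 in BT-20. ADAM10, which releases BTC and EGF, was higher in BT-20 by −1.09 (SE 0.118). ADAM17, the main protease of TGFA and AREG, differed by −0.42 (adjusted P 0.0519 by limma), and RHBDF1, a regulator of ADAM17, by −0.28 (adjusted P 0.0527 by limma). Both were called with set as a replicate block shared by the lines (adjusted P 0.0278 and 0.0309 by limma). With set within line as a random replicate block neither was called (adjusted P 0.1215 and 0.1225 by limma). With values under 5 raised to 5 both were called (adjusted P 0.0483 and 0.0467 by limma). The shared block and the raised values each gave 5 calls of 7. Without BT-20 M replicate 2 there were also 5, with RHBDF1 and RHBDF2 (adjusted P 0.0191 and 0.0199 by limma) and not ADAM17 (0.0621). RHBDF1 was also called with quantile normalisation (adjusted P 0.0155 by limma). ADAM17 was also called with trend and robust settings and with the mean of probe sets (adjusted P 0.0363 and 0.0236 by limma). In the ODN arrays RHBDF1 differed by −0.81. RHBDF1 and RHBDF2 are named because their calls changed, as seen in the values.

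Of the 17 tested adaptors and first signalling enzymes, 13 were called, 3 higher in Hs578T and 10 higher in BT-20, with a median difference of −0.95. Over all genes tested, 74.6% were called, 34.4% higher in Hs578T and 40.2% higher in BT-20, with a median of −0.09. Whether the list differs from that background was not tested. SHC1, an adaptor that links the receptors to GRB2, was higher in BT-20 by −1.53 (SE 0.115), and GRB7, an adaptor of ERBB2 that was under 5 in Hs578T, was at least 3.17-fold higher in BT-20. EPS8, a substrate of EGFR, was higher in Hs578T by +1.95 (SE 0.186).

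Of the 14 genes of receptor down-regulation, 11 were called, 5 higher in Hs578T and 6 higher in BT-20. LRIG1, a membrane protein that lowers ERBB receptor levels, was higher in Hs578T by +3.33 (SE 0.144), and the ubiquitin ligase CBLB by +2.59 (SE 0.115). Its relative CBLC was under 5 in Hs578T and at least 3.81-fold higher in BT-20. The members of this list therefore moved both ways.

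Of the 15 tested ERK feedback genes and targets, 11 were called, 6 higher in Hs578T and 5 higher in BT-20, with a median difference of −0.05. The phosphatase DUSP4 was higher in BT-20 by −5.08 (SE 0.163) and the transcription factor ETV4 by −2.26 (SE 0.118). DUSP6, a phosphatase specific for ERK, was higher in Hs578T by +2.47 (SE 0.296).

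**Figure D3:**
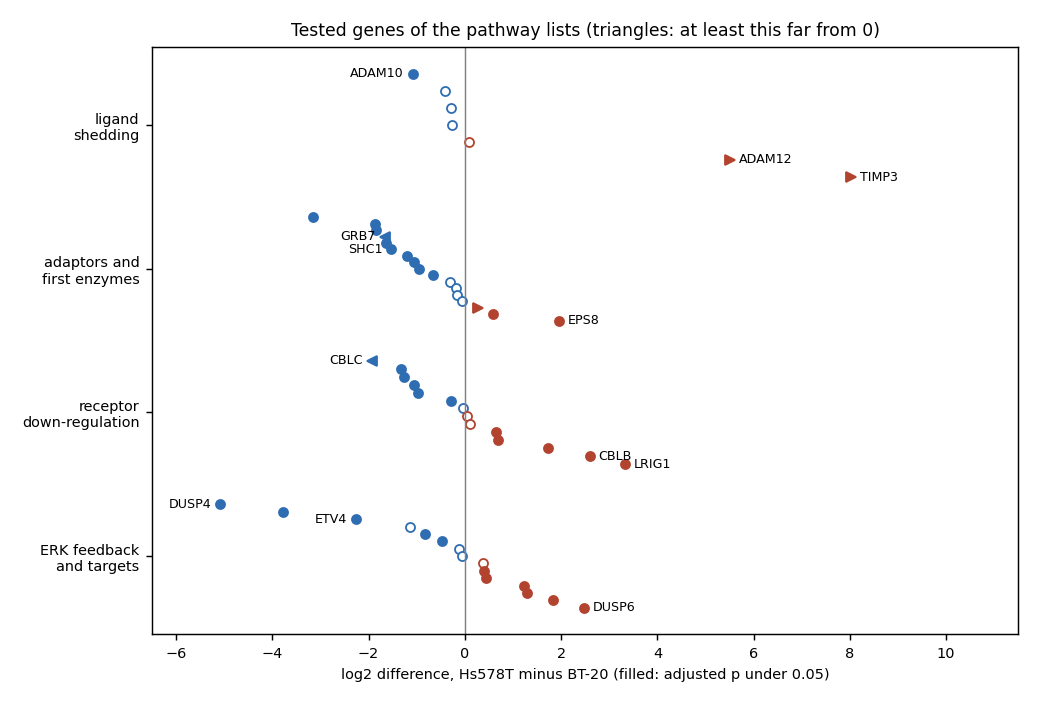
log2 difference, Hs578T minus BT-20 over the M and U arrays (x axis), of each tested gene of the 4 pathway lists (y axis, spread within a list by rank); filled symbols had an adjusted P under 0.05 in limma, triangles are lower bounds against 5, and the 3 genes with the smallest P of each list are named. TIMP3 and ADAM12 stand far to the right, with bounds of +8.03 and +5.51. Of the adaptors, 10 of 17 were called higher in BT-20, where 40.2% of all genes tested were.

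The second comparison asked whether the methylation of the oligonucleotide changed the members. The effect of M minus U was tested in each line, in the mean of the lines and as a contrast of one line with the other, and no member passed in any of the 4 tests. No other gene passed either, so that the background was 0.0% of 10410 genes in each. At an unadjusted P under 0.05 there were 680 genes in Hs578T, 174 in BT-20, 543 in their mean and 258 in the contrast. The lowest adjusted P of a member was 0.802 in Hs578T, 0.9998 in BT-20, 0.937 for their mean and 0.999 for the contrast, all by limma. With 2 arrays a group, the confidence intervals were wide. For EGFR, M minus U over both lines was −0.17 (95% confidence interval −0.49 to 0.14), and for HBEGF it was +0.24 (−0.80 to 1.27).

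ERBB2 had the lowest unadjusted P among the members over both lines. It was lower after M than after U in all 4 pairs of a set, by −0.18 and −0.50 in Hs578T and by −0.53 and −0.17 in BT-20. The difference of −0.34 (SE 0.125; 95% confidence interval −0.64 to −0.05) had an adjusted P of 0.937 by limma and failed the correction. The NRG1 probe set 206237_s_at was lower after M in Hs578T by −0.61 and −0.63 in the 2 sets, and 208230_s_at by −0.77 and −1.68. Their adjusted P by limma, over all probe sets, were 0.636 and 0.692. Also lower after M in both sets of Hs578T were 206343_s_at (−0.46 and −0.51), 208241_at (−0.43 and −2.11) and 208231_at (−0.39 and −0.25). The last of these was under 5 in all M and U arrays and was not tested. Only 208232_x_at differed the other way, by +0.12 over the sets. No NRG1 probe set was called.

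The third comparison set ODN2006 against its GpC control, with 1 array of each in a line. Over both lines no member was called, and 1 of 10543 genes was (0.00948%). HBEGF stood out in Hs578T, where ODN2006 gave 9.43 and its control 7.36 with 203821_at, a difference of +2.07 or 4.18-fold. With 38037_at the values were 8.48 and 5.86, a difference of +2.62. In BT-20 the 203821_at value was lower after ODN2006 by −0.64, with both values under 5. The mean of both lines was +0.71 (SE 0.612; adjusted P 0.999 by limma). The Hs578T difference has no replicate, and the M and U arrays of set 1 had 38037_at values of 7.57 and 7.54, between those of the control and of ODN2006.

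The NRG1 probe sets 206237_s_at, 208230_s_at and 208231_at were also higher after ODN2006 in Hs578T, by +0.97, +0.86 and +1.07. The other 3 differed by +0.33 (206343_s_at), −0.05 (208232_x_at) and −0.02 (208241_at). The difference over both lines was +0.58 for 206237_s_at (adjusted P 0.786 by limma), and none of these probe sets was called.

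**Figure D4:**
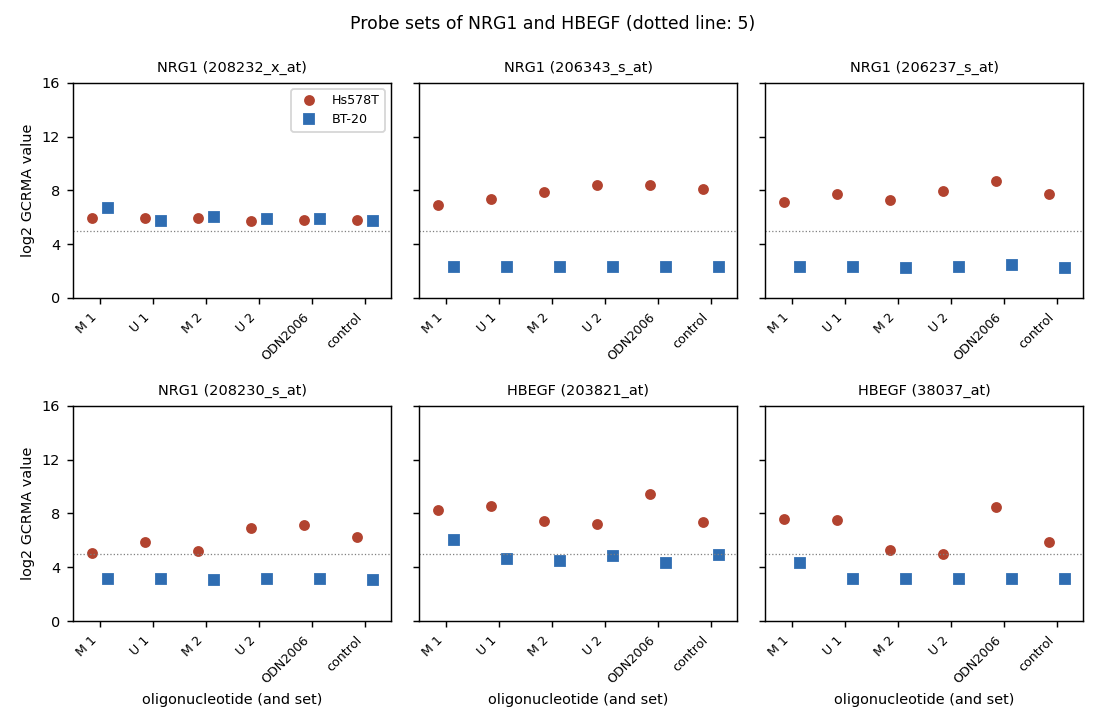
log2 GCRMA value (y axis) of 4 NRG1 and 2 HBEGF probe sets in the 12 arrays (x axis: oligonucleotide, with the set for M and U); circles are Hs578T, squares BT-20, and the dotted line marks 5. NRG1 208232_x_at overlaps between the lines while the other NRG1 probe sets are higher in Hs578T, and both HBEGF probe sets are higher in Hs578T in M 1, U 1 and ODN2006 than in M 2, U 2 and the control.

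The single-stranded ODN arrays, ODN2006 and its control together, were also set against the M and U arrays of set 2, with which their array names go. The 2 arrays on each side in a line served as replicates. The spread therefore took in the difference of ODN2006 from its control and of M from U. The kinds of oligonucleotide differ in sequence, strandedness and chemistry, and the culture cannot be told apart from them. In Hs578T 9.03% of genes were called and no member was. HBEGF differed by +1.03 (SE 0.607; adjusted P 0.302 by limma), a value that rested on the ODN2006 array: without it the difference was −0.0001, and without the control array it was +2.07 (adjusted P 0.0211 by limma). EGFR differed by +0.29 (SE 0.204; adjusted P 0.390 by limma), and by +0.60 without Hs578T U replicate 2 (adjusted P 0.0429 by limma). The other tested HBEGF probe set, 38037_at, differed in Hs578T by +2.04 (SE 0.730; adjusted P 0.1235 by limma). The NRG1 probe sets ran there from −0.03 (208232_x_at) to +1.27 (208231_at, adjusted P 0.0533 by limma), and none was called. The probe set 208231_at passed the filter there only through the ODN arrays of Hs578T, so its direction was largely fixed in advance. In BT-20 no member and no gene was called (0.0%, with 534 genes at an unadjusted P under 0.05). The difference between the lines was called for 0.27% of genes and for no member.

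Of the pathway lists, 4 of 53 tested genes were called in Hs578T in this comparison. The exchange factor SOS1, which activates RAS, fell by 0.57 on the log2 scale (SE 0.137; adjusted P 0.0496 by limma), and PIK3R3, a regulatory subunit of PI3 kinase, fell by 1.01 (SE 0.134; adjusted P 0.0141 by limma). EGR1, an early target of ERK, rose by 1.45 (SE 0.298; adjusted P 0.0362 by limma). VAV3, another exchange factor, read 5.21 and 5.84 in M 2 and U 2 and was under 5 in both ODN arrays (adjusted P 0.0359 by limma). With values under 5 raised to 5 it differed by −0.52 and was not called (adjusted P 0.125 by limma). With 1 of the 8 arrays left out, the calls of SOS1, VAV3 and EGR1 held only without the Hs578T control array, with adjusted P up to 0.160, 0.0836 and 0.109 by limma otherwise. PIK3R3 lost its call without Hs578T M replicate 2 (adjusted P 0.0501 by limma) or Hs578T ODN2006 (0.0557). With the mean of probe sets SOS1 was −0.04, PIK3R3 −0.83 and VAV3 −0.73, and none was called (adjusted P 0.827, 0.0874 and 0.06 by limma). EGR1 kept its call there (adjusted P 0.04 by limma). Without a filter SOS1, VAV3 and EGR1 were not called (adjusted P 0.0741, 0.0928 and 0.09 by limma) and PIK3R3 was (0.0235). With housekeeping centring SOS1 was not called (adjusted P 0.0815 by limma). The share of called genes among the lists was near the background of 9.03%.

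Set 1 was finally set against set 2 within each line, a comparison added after the values were seen. The M and U arrays of a set served there as its replicates. The P-values therefore measure the spread of M and U within a set, and not how much one set differs from another by itself. In BT-20 TGFA was 10.53 and 10.12 in set 1 and 9.32 and 9.09 in set 2, and the ODN arrays at 9.19 and 9.42 lay with set 2. The difference was +1.12 (SE 0.157; adjusted P 0.0243 by limma), where 2.5% of genes were called. The call was lost without Hs578T M or U replicate 1, BT-20 M replicate 1 or BT-20 M or U replicate 2, with differences from +0.92 to +1.24 (adjusted P 0.0715 to 0.151 by limma). The difference between the lines, which 1.28% of genes passed, was −1.13 for TGFA (adjusted P 0.0754 by limma), and −1.33 without BT-20 U replicate 1. TGFA stayed between 2.32 and 2.36 in Hs578T, where no change could be seen. This contrast is therefore the BT-20 difference with its sign turned and cannot compare the lines. EREG followed the same order, with a difference of +0.85 (SE 0.185; adjusted P 0.0659 by limma), and did not pass. HBEGF differed by +0.65 in BT-20 (adjusted P 0.472 by limma), and by +1.36 without BT-20 U replicate 1 (adjusted P 0.0382 by limma).

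Tested on their own, 205016_at and 205015_s_at of TGFA passed in BT-20 (1.92% of probe sets called), with differences of +1.12 and +1.03, and 211258_s_at did not (+0.79, adjusted P 0.106 by limma). From the pathway lists, GRB7 and EGR1 were lower in set 1 of BT-20, by −0.76 (SE 0.126; adjusted P 0.0349 by limma) and −1.85 (SE 0.208; adjusted P 0.0124 by limma). GRB7 kept its call only without Hs578T M or U replicate 2 (adjusted P up to 0.198 by limma without another array), and EGR1 lost it without BT-20 M replicate 2 (0.0713).

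In Hs578T HBEGF differed between the sets with 1 of its 2 tested probe sets. With 38037_at it read 7.57 and 7.54 in set 1 and 5.26 and 5.00 in set 2, a difference of +2.43 (SE 0.334; adjusted P 0.0246 by limma over all probe sets, of which 2.09% were called). With 203821_at the difference was +1.06 (SE 0.418; adjusted P 0.242 by limma) and did not pass, where 2.74% of genes did. The NRG1 probe set 206343_s_at ran the other way, at 6.90 and 7.36 in set 1 and 7.88 and 8.39 in set 2, and did not pass (adjusted P 0.0753 by limma). What differed between the sets is not named in the labels beyond the biological replicate.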

How the data were processed

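The deposited values are log2 expression values, which the authors made from Affymetrix HG-U133 Plus 2.0 arrays with GCRMA in R 2.4, per the submitters' processing notes. Of 54675 probe sets, 41097 carry 1 gene symbol in the probe annotation, 1801 several and 11777 none. For 41043 of those with 1 symbol the gene was found in RefSeq (GRCh38.p14), and its symbol there was used. Array medians were 3.01 to 3.09, and arrays correlated at 0.985 to 0.998 within a line and at 0.887 to 0.906 between lines. No pair of arrays was identical. Precision is limited by how few arrays there are, and the P-values measure only the spread between these cultures.

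A gene was represented by its single-symbol probe set with the highest mean over the 12 arrays and was tested where 2 or more arrays of the comparison were at 5 or above. limma 3.58.1 (R 4.3.3) fitted group means of line and treatment, followed by eBayes and Benjamini-Hochberg adjustment over all genes tested, with a threshold of 0.05; the variance of the unreplicated ODN groups was taken from the M and U groups. The ODN arrays against set 2 were instead fitted by line and kind of oligonucleotide, and the set comparison by line and set. In that last fit the M and U arrays of a set served as its replicates. The M and U arrays of the same set deviated together (correlation 0.599 in Hs578T and 0.595 in BT-20), and set was therefore also fitted as a replicate block. The scripts were tested on simulated data.

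The members and lists were chosen with earlier results of these data known. Named genes were all members, at most 3 tested genes of each pathway list with the smallest P in the line comparison together with those called in a treatment comparison, the tested EGFR neighbours and at most 3 markers of each type. Alternatives were quantile normalisation, centring on 19 housekeeping genes, no filter, values under 5 raised to 5, the mean of a gene's probe sets, eBayes with trend and robust settings, replicate blocks, other array subsets and leaving out each array in turn. The set comparisons and the tests of single probe sets were added after the data were seen. No sequence of the M and U oligonucleotides is reported here.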

Additional observations from a re-analysis of the deposited data

Results flagged for a closer look

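Among the members, 18 sets of 4 arrays (M and U of a line) were screened for a value far from the other 3, and 1 was found. NRG1 in the Hs578T array of U replicate 2 read 5.69 with 208232_x_at, and its distance to the nearest of the other arrays was 0.929 of the whole range, above the 95% critical value of Dixon's test for 4 values. Chance alone gives such a value in about 1 of 20 groups. The other 3 arrays lay between 5.92 and 5.94.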

How the results depend on the processing

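The line differences of EGFR, ERBB2, ERBB3, EREG, TGFA and HBEGF kept their direction and an adjusted P under 0.05 by limma in all 17 alternatives over the M and U arrays; the narrowest values were −2.36, −1.32, −2.78, −3.39, −4.77 and +1.47. ERBB3, EREG and TGFA were under 5 in Hs578T and passed the filter only through BT-20, so that the alternatives do not test their direction. With set as a replicate block EGFR gave −3.35 (adjusted P 4.92e-06 by limma) and 6 members were called. The block left 0 members called for M minus U. NRG1 turned to +0.0134 with housekeeping centring, which shifted the median of all genes by 0.20, and to +2.85 with the mean of probe sets; without BT-20 M replicate 2 it was −0.36 (adjusted P 0.0315 by limma). In the ODN arrays it turned to +0.0029 with quantile normalisation, +0.11 with housekeeping centring and +3.50 with the mean of probe sets. HBEGF, ODN against M and U of set 2 in Hs578T, turned to −0.0001 without the ODN2006 array and was 2.07 (adjusted P 0.0211 by limma) without its control.

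Leaving out 1 array gave 0 to 1 members called in that comparison, 0 to 2 for set 1 against set 2 in BT-20 and 0 to 1 for its difference between the lines. TGFA, set 1 against set 2 in BT-20, lost its call without a filter (adjusted P 0.0602 by limma; 0 members called) and without Hs578T M or U replicate 1, BT-20 M replicate 1 or BT-20 M or U replicate 2 (0.0715 to 0.151). Ligand shedding had 5 genes called with values under 5 raised to 5, with set as a replicate block and without BT-20 M replicate 2, and 3 to 5 over the single arrays left out.

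Over all genes, ODN2006 against its control gave 1 call, 150 without a filter, 3 with values raised to 5 and 0 with trend and robust settings or from the 4 ODN arrays alone. ODN against M and U in Hs578T gave 937, 1444 with trend and robust settings and 135 to 1528 without single arrays; in BT-20 it gave 0, and 4 without a filter; the difference between the lines gave 28, 67 without a filter, 50 with values raised to 5 and 7 to 155 without single arrays. Set 1 against set 2 gave 285 in Hs578T (1198 with housekeeping centring, 43 to 372 without single arrays), 260 in BT-20 (417 with values raised to 5, 43 to 458) and 133 for the difference (38 to 263). The cause of these changes was not tested. Values under 5 limit ERBB3, EREG and TGFA in Hs578T, and in BT-20 the NRG1 probe sets other than 208232_x_at, to bounds; HBEGF (203821_at) was under 5 in 5 of 6 BT-20 arrays.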
